A study of Mus musculus with 64 samples.

Results

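Newly formed regulatory T (Treg) cells of the thymus were compared with active Treg cells of pooled spleen and lymph nodes. The comparison was defined by library name, and used the 3 thymus WT and the 3 active WT bulk RNA-seq libraries, 6 of 64 samples in the series. Both groups came from adult female Foxp3 AID/+ mice, in which one X-linked Foxp3 allele carries an auxin-inducible degron (AID) fused to Foxp3 and drives the green reporter ZsGreen and Cre recombinase, so that the ZsGreen gate took cells that used this allele. WT here means an unmodified ROSA26 locus. All mice received the auxin analog 5-ph-IAA for 7 days, which degrades AID-Foxp3 only where the plant ligase TIR1 is present, so WT cells were drug-treated controls that lacked it. Nascent cells were sorted as CD4+ZsGreen+ cells without surface CD73, a protein that marks older cells that have returned to or stayed in the thymus. Active cells were sorted by a gate that included high CD44. Cells of both tissues were enriched for CD4, gated on TCRβ, CD4 and ZsGreen and sorted a second time. A second set of 6 libraries, named TIR1, came from mice with the same AID allele, the same drug and the same gates, but with a ROSA26 allele encoding Cre-dependent TIR1(F74G) and mCherry, so their Foxp3 was open to degradation for 7 days. These TIR1 libraries served as a check in separate samples. Resting and active Treg cells of untreated Foxp3-GFP reporter mice, 2 libraries each, were set beside them as a description.

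For each of the 12 degron libraries, the sample under which the count file is recorded and the library name in the file's header disagreed on genotype, though never on tissue. Genotype was taken from the library name. Taking the recorded sample in its place exchanges the WT and TIR1 comparisons and leaves thymus against active as it is. The WT libraries held 27753211 to 33603521 counted read pairs and the TIR1 libraries 28522360 to 34029692. The first principal component over 12 libraries (51.8% of the variance) separated the tissues, and on the second (6.95%) active WT replicate 1 stood apart from the other 11. Counts that moved by over 1.5 times without it are given both ways. The study describes the replicates as independent, and the p-values below measure the spread between these 3 libraries per group. Thymus and active library names share running numbers, so such libraries may come from the same mouse, which the labels do not state. The main test did not pair them. Levels are given in CPM, the count of a gene scaled to the total of its library, which are not scaled to gene length, so that levels are compared within a gene only.

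A Treg cell arises when a CD4 single-positive thymocyte that has bound self-antigen switches on Foxp3, the lineage-defining transcription factor. It then finishes maturation, leaves the thymus through sphingosine-1-phosphate receptor S1PR1, and circulates through lymphoid organs as a resting cell that expresses CCR7. Renewed antigen contact turns a fraction of these cells into active, effector Treg cells, which gain CD44 and receptors for inflamed tissue, and make suppressive molecules such as IL-10.

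The sorted proteins were reflected in their transcripts, which describe the gates and are no finding. Cd44 was at 56.9, 54.1 and 83.0 CPM in the thymus WT libraries and 179, 189 and 164 CPM in the active ones, and Nt5e, encoding CD73, at 26.3, 22.4 and 21.9 against 665, 867 and 1122 CPM. The 7 T cell and Treg identity genes fixed as markers (Cd3d, Cd3e, Cd3g, Cd4, Trac, Foxp3 and Il2ra) were detected in all 6 libraries, and 0 of the 7 passed the test between tissues. Foxp3 itself was at 158, 144 and 181 CPM in thymus and 99.95, 104 and 127 CPM in active WT libraries. Its 3 thymus values all lay above the active ones, but the log2 difference of 0.46 ± 0.15 (SE) missed the threshold (edgeR quasi-likelihood test, adjusted p = 0.0875, n = 3 per group). In the TIR1 libraries the Foxp3 transcript was at 168, 144 and 157 against 83.4, 93.4 and 76.7 CPM and passed it, with a log2 difference of 0.84 and an adjusted p of 0.00125. Exons of other genes cover 31.5% of the exonic bases of Foxp3, and pairs that fell there were not assigned to it.

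Of 14690 genes with a mean count of at least 10, 2322 differed between thymus and active WT cells at an adjusted p under 0.05 (15.8%). Of these, 875 were higher in thymus (5.96%) and 1447 were lower (9.85%), and 602 and 1168 of them changed at least 2-fold. More genes were thus lower than higher in nascent cells, also among the genes with the larger changes. Leaving out active WT replicate 1 raised the count to 2822 and leaving out active WT replicate 2 lowered it to 1585. In bulk RNA, fewer cells of a type and less RNA per cell cannot be told apart.

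The TIR1 libraries gave the same picture in samples that the first comparison did not use. Of 14844 genes tested, 3469 were called (23.4%), 1490 higher (10%) and 1979 lower (13.3%) in thymus. Among the 13994 genes tested in both genotypes, 689 were called higher in both (4.92%), 1124 lower in both (8.03%), and 0 were called in opposite directions. Of the 2297 WT calls that could be looked up, 2267 (98.7%) had the same sign in TIR1, beside 76.7% of all genes. The genes called in both made up 78.1% of the WT calls and 52.3% of the TIR1 calls. A tissue-by-genotype interaction, which asks whether a tissue difference differed between WT and TIR1, called 0 of 14769 genes (0.0%) in edgeR, with 984 genes at an unadjusted p under 0.05, whereas DESeq2 called 71.

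**Figure D1:**
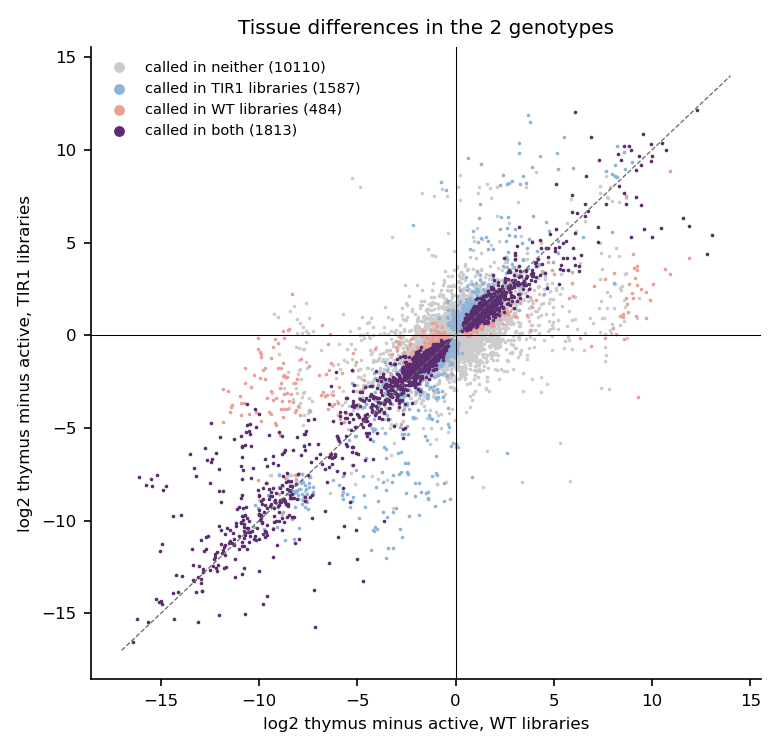
Each point is one of the 13994 genes tested in both genotypes, placed by its fitted log2 difference (thymus minus active) in the WT libraries (x axis) and the TIR1 libraries (y axis), with the dashed line marking equal values and colour the calls. The 1813 genes called in both have values of 1 sign in both genotypes, and none has opposite signs, while the fitted size of genes with no read pair in one tissue, such as Ccl20, depends on the prior count.

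The genes with the largest gain in nascent cells, by the rule stated under the processing, were Pyroxd2, Cd24a, Fibcd1, Arhgap20os, Lhfp, Tspan9, Ampd1, Ptger3, Prkar1b and Nrp2. Arhgap20os lies antisense to Arhgap20, whose level was also higher in thymus. Counting ignored strand, and exons of Arhgap20 cover 6.12% of the exonic bases of Arhgap20os, where reads of these genes cannot be told apart. The part of reads from outside the exons of Arhgap20 was not tested. Cd24a, encoding the heat-stable antigen CD24 that thymocytes lose as they mature, lies on chromosome 10, 43454280 to 43460261 (mm39). It was at 22.2, 31.5 and 37.0 CPM in the thymus libraries and had no read pair in any active WT library, at least 313-fold higher when the active group is set at a floor of 3 counts per library (adjusted p = 0.000201). In TIR1 mice it was at 29.0, 17.5 and 23.7 against 0, 1.65 and 1.64 CPM. Pyroxd2, a pyridine nucleotide-disulphide oxidoreductase gene, was at 37.0, 30.1 and 42.4 CPM against 0 in the 3 active WT libraries, at least 377-fold. In TIR1 mice it was at 30.3, 19.3 and 25.1 against 0, 0 and 1.64 CPM, 45.6-fold between group means. Ptger3, encoding the prostaglandin E2 receptor EP3, was at 43.5, 26.8 and 31.6 CPM in thymus and at most 0.0928 CPM in active cells. Ampd1, the AMP deaminase that makes inosine monophosphate, was at 17.3, 16.9 and 13.8 CPM in thymus and in a single active WT library only, at 0.0309 CPM. Nrp2, encoding a semaphorin co-receptor, was at 23.2, 25.9 and 36.4 against 0, 0 and 0.65 CPM. For each of these 10 genes the thymus and active libraries did not overlap in either genotype, which was part of the rule. The highest thymus WT value among the 10 was 43.5 CPM, for Ptger3, without scaling to gene length.

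At the other end were Ccl20, Gzmb, Angptl2, Tox2, Serpinb1a, Rnase4, Cxcr3, Gbp2b, Fgl2 and Il10. All 10 had no read pair in any thymus WT library. The ranking favours such genes, since the fitted log2 difference of a group at 0 depends on the prior count. Gbp2b was fitted at -15.3 for at least 1525-fold, and Il1r2, with some reads in thymus WT, at -10.4 for 1330-fold. In thymus TIR1 libraries, Angptl2, Tox2, Rnase4, Cxcr3 and Fgl2 had reads, at means of 0.549 to 0.892 CPM. Ccl20, which encodes the ligand of CCR6 (chromosome 1, 83094487 to 83096888, mm39), was at 365, 331 and 378 CPM in active WT and 414, 277 and 424 CPM in active TIR1 cells, and at 0 in all 6 thymus libraries, at least 3464-fold lower in thymus WT (adjusted p = 8.06e-06). Gzmb, encoding the cytotoxic protease granzyme B, was at 195, 340.1 and 379 CPM in active WT cells. Il10, encoding the suppressive cytokine IL-10, was at 132, 135 and 156 CPM, at least 1366-fold above thymus. Fgl2, whose product is a soluble suppressive mediator of Treg cells, was at 95.7, 146 and 215 CPM. Serpinb1a, encoding an inhibitor of neutrophil-type serine proteases, was at 164, 235 and 218 CPM and likewise at 0 in the 6 thymus libraries. Gbp2b, an interferon-inducible guanylate-binding protein gene, was at 71.5, 195 and 206 CPM, with replicate 1 lowest.

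Across all genes, 63 had no read pair in the 3 thymus WT libraries and at least 10 CPM in every active WT library, against 5 genes in the reverse direction. Of the 63, 36 were also at 0 in the 3 thymus TIR1 libraries, and all 63 had a thymus TIR1 mean under 3 CPM. The 5 in the reverse direction (Cd24a, Pyroxd2, Arhgap20os, 2810410L24Rik and Gm37811) all had an active TIR1 mean under 3 CPM, and 0 of them were at 0 in all 3 active TIR1 libraries. A count of 0 in these libraries allows a level of up to 0.0882 to 0.108 CPM, which covers counting error only since the reads carry no molecular identifiers.

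**Figure D2:**
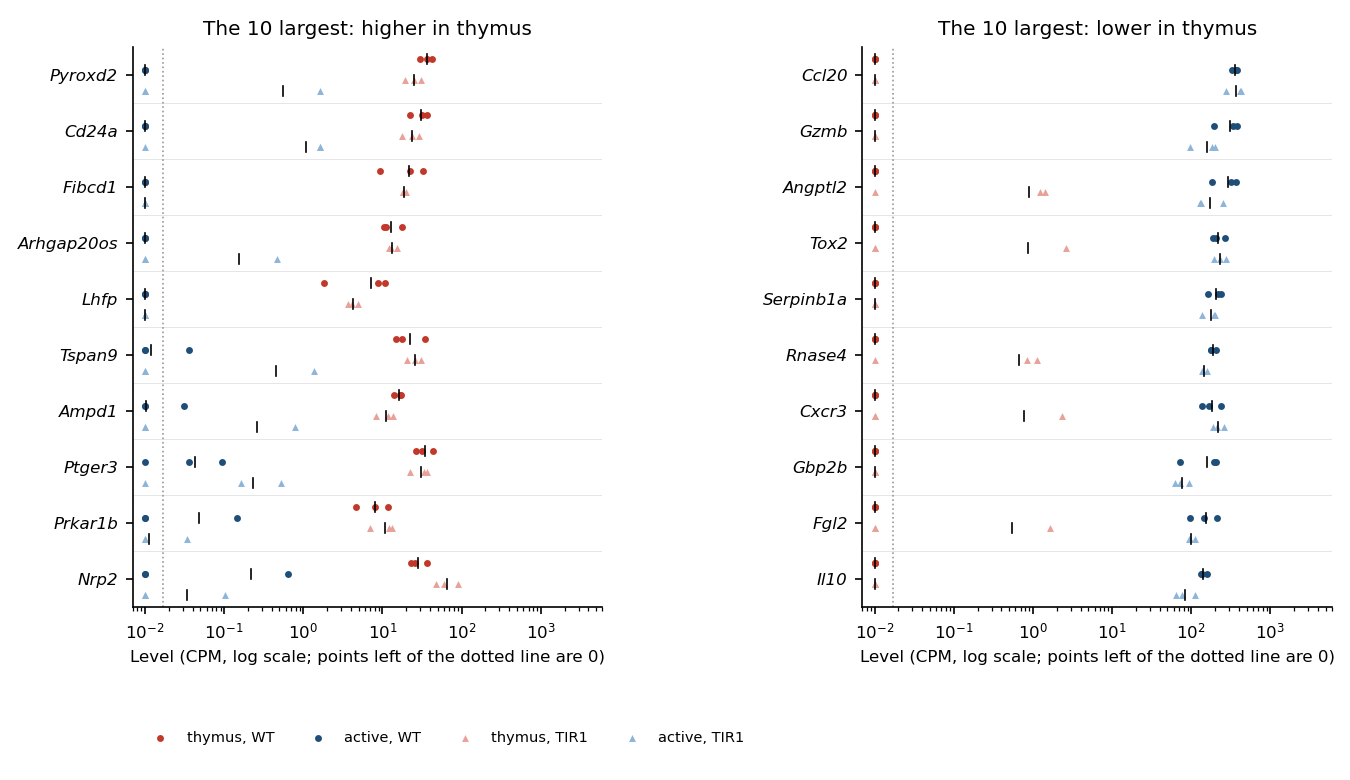
Level of the 10 genes with the largest gain (left) and loss (right) in thymus, in CPM on a log axis. Each point is a library, the black ticks are group means (n = 3), and points left of the dotted line are 0; the 10 genes on the right have all 3 thymus WT libraries at 0.

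In the lists that follow, the counts of called members are to be read beside the 15.8% of all genes called in WT, 5.96% higher and 9.85% lower in thymus. Among the 18 genes of the Treg core list, which holds receptors and transcription factors that set Treg cells apart from other CD4 T cells, 8 were higher in thymus, 5 lower and 5 passed no test in WT, with a median log2 difference of 0.56 beside -0.03 over all genes tested. The higher side held members of the tumour necrosis factor receptor family and the Ikaros family. Tnfrsf9, encoding the costimulatory receptor 4-1BB, was at 887, 878 and 826 CPM in thymus and 238, 152 and 131 CPM in active cells, a log2 difference of 2.22 ± 0.22 (SE, edgeR adjusted p = 0.00047). Ikzf4, encoding Eos, a Foxp3 partner in repression, was at 315, 282 and 284 against 93.0, 73.3 and 54.8 CPM. Ecm1, encoding a secreted matrix protein, was at 635, 654 and 648 against 124, 138 and 143 CPM. Tnfrsf18 (GITR), Tnfrsf4 (OX40), Ikzf2 (Helios), Lrrc32 (GARP) and Gpr83 completed the 8, with log2 differences from 1.02 to 1.56.

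The 5 lower genes of the core list have different roles. Ctla4, encoding the inhibitory receptor that strips CD80 and CD86 from antigen-presenting cells, was at 371, 403 and 366 CPM in thymus and 942, 1126 and 1141 CPM in active cells, a log2 difference of -1.58 ± 0.11 (adjusted p = 7.79e-05). Socs2, encoding a suppressor of cytokine signalling, was at 21.5, 30.5 and 20.9 against 362, 416 and 365 CPM. Capg, encoding an actin-capping protein, was at 278, 261 and 218 against 1681, 2019.5 and 1801 CPM. Izumo1r, encoding folate receptor 4, and Nrp1 were the other two, at log2 differences of -1.07 and -0.90. Il2ra and Il2rb, which encode the alpha and beta chains of the interleukin-2 receptor, did not pass the test, at log2 differences of -0.22 and -0.16. All 13 calls were also made in the same direction in the TIR1 libraries.

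The effector list was nearly one-sided. Of 26 genes of activated Treg cells, 22 were lower in thymus WT, 1 was higher and 3 passed no test, with a median log2 difference of -4.71. Among secreted and surface molecules, Havcr2, encoding the inhibitory receptor TIM-3, was at 0 in the 6 thymus libraries and at 37.1, 60.8 and 91.2 CPM in active WT cells, at least 609.9-fold lower in thymus (adjusted p = 0.000204). Klrg1, encoding a lectin-like receptor of terminally differentiated cells, was at 0 against 25.4, 5.54 and 10.6 CPM. Tigit was at 0.106, 0.134 and 0 against 129, 136 and 132 CPM and Lag3 at 0.142, 0.97 and 0.758 against 165, 183 and 213 CPM. Among transcription factors, Maf was at 1.67, 4.75 and 1.21 against 566, 419 and 455 CPM, and Prdm1, encoding Blimp-1, at 6.63, 4.48 and 1.38 against 68.7, 115 and 126 CPM. Batf and Icos were already measurable in nascent cells. Icos, encoding a costimulatory receptor, was at 162, 222 and 179 against 1450.4, 1179 and 1148 CPM, a log2 difference of -2.84 ± 0.17.

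Gata3, encoding a factor of T cell development and of type 2 responses, was the one effector gene higher in thymus, at 388, 432 and 409 against 241, 227 and 231 CPM (log2 difference 0.72 ± 0.11, adjusted p = 0.00301). Ccr8, a chemokine receptor gene of tissue and tumour Treg cells, was at 127, 148 and 146 CPM in thymus and 107, 124 and 121 CPM in active cells, and its log2 difference of 0.17 did not pass the test (adjusted p = 0.49). Areg and Tbx21 were the other two without a call, at log2 differences of -0.76 and -3.52. Of the effector genes, 21 were called lower in both genotypes.

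Most receptors that guide cells to tissues were lower in nascent cells. Of 17 chemokine receptor genes, 16 were tested in WT, 11 of them were lower in thymus and 1, Ccr7, was higher, with a median log2 difference of -7.91, or -6.35 with groups at 0 set to the floor. Ccr7, which guides cells into lymph node T cell zones, was at 2188, 2369 and 2199.9 CPM in thymus and 475, 507 and 443 CPM in active cells, a log2 difference of 2.15 ± 0.10 (adjusted p = 1.41e-05). Cxcr3, the receptor for interferon-induced chemokines, was at 0 against 236, 169 and 138 CPM. Ccr1, a receptor for inflammatory chemokines, was at 0 in the 6 thymus libraries and at 123, 122 and 149.6 CPM in active WT cells. Ccr2 was at 0, 0 and 1.96 against 470.1, 718 and 712 CPM and Cxcr6 at 0.887, 1.34 and 0.723 against 684, 791 and 729 CPM. Ccr3 and Ccr10 were at 0 in thymus and reached 10.1, 4.58 and 7.58 CPM and 13.8, 8.24 and 6.65 CPM. Ccr9, which guides cells to the gut, was expressed on both sides, at 124, 99.5 and 117 against 209, 137 and 172 CPM, called lower in WT (log2 difference -0.70, adjusted p = 0.04) and at 0.05 without a call in TIR1. Cxcr4, the receptor for stromal CXCL12, did not pass the test, at 7.41, 14.2 and 16.8 against 9.12, 12.8 and 22.0 CPM.

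Adhesion genes were also lower or did not pass the test, with an egress receptor as the exception. Of 19 genes for integrins, selectin ligands and sphingosine receptors, 17 were tested, 1 was higher in thymus (S1pr1) and 8 were lower, with a median log2 difference of -1.02. S1pr1, the receptor that lets mature thymocytes and lymph node T cells exit, was at 1316, 1448 and 1379 CPM in thymus and 357, 420.0 and 396 CPM in active cells (log2 difference 1.73 ± 0.10, adjusted p = 3.99e-05). Itgae, encoding the CD103 integrin chain that binds epithelial E-cadherin, was at 0, 2.54 and 0 against 72.2, 147 and 147 CPM. Itgb1 was at 116, 98.5 and 108 against 312, 318 and 306 CPM. P2rx7, encoding a channel gated by extracellular ATP, was at 34.0, 26.8 and 30.2 against 146, 139.8 and 135 CPM. Itga2 and S1pr2 also fell, by 3.64 and 1.64 on the log2 scale, and these calls were lost under some alternatives.

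**Figure D3:**
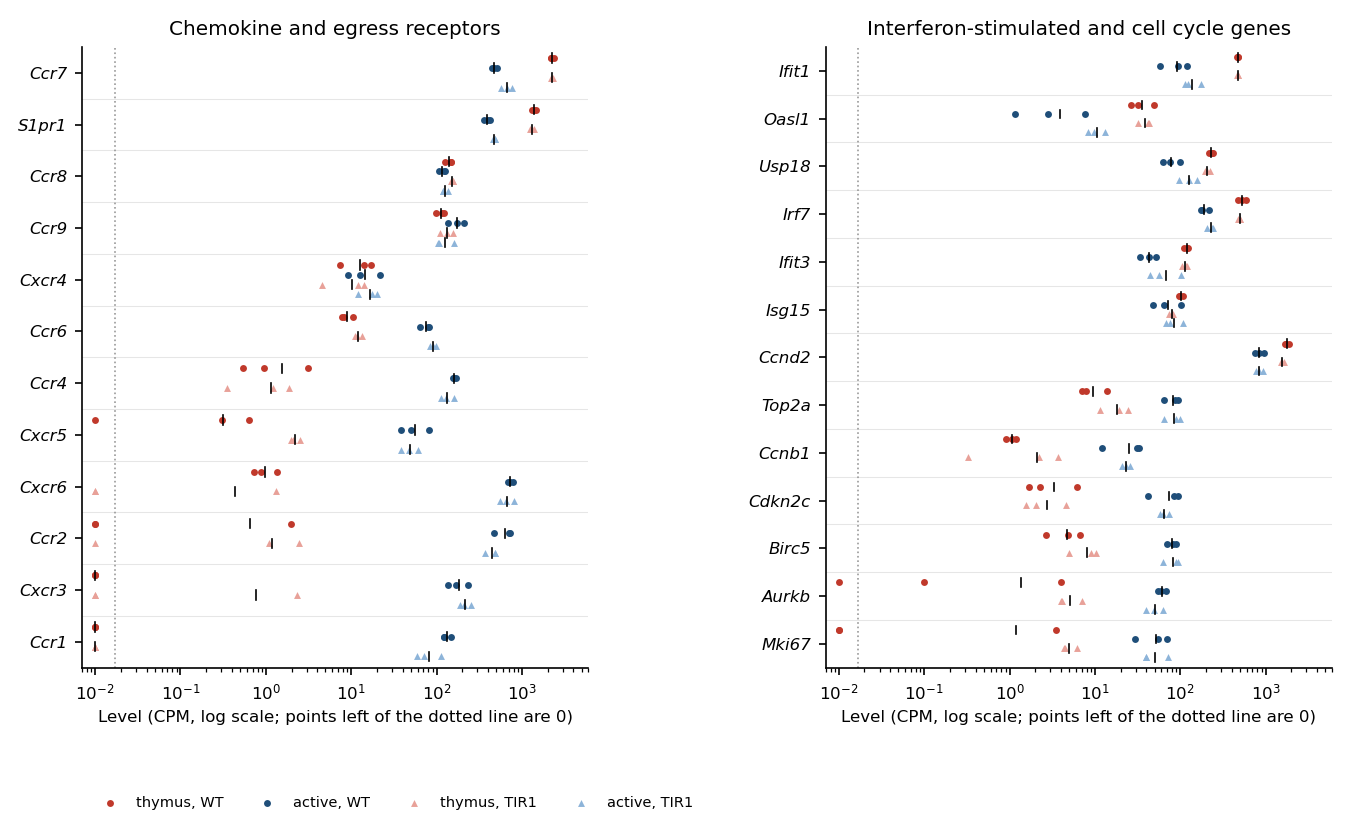
Level in CPM (log axis) of receptor genes (left) and of interferon-stimulated and cell cycle genes (right), one point per library, with black ticks at the group means (n = 3) and points left of the dotted line at 0. Ccr7 and S1pr1 are higher in thymus in both genotypes, and the genes from Ccr6 to Ccr1 are higher in active cells, while Ccr8 and Cxcr4 did not pass the test and Ccr9 was called in WT alone.

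The list of immature single-positive thymocyte genes rose in part. Of 16 genes, 11 were higher in thymus, 3 lower and 2 passed no test, with a median log2 difference of 0.93. Sox4, a factor of early T cell stages, was at 341, 331 and 353 CPM in thymus and 8.9, 3.42 and 2.14 CPM in active cells, a log2 difference of 6.06 ± 0.53 (adjusted p = 0.000214). Satb1, encoding a chromatin organizer of thymocyte differentiation and Treg priming, was at 1115, 1297 and 1097 against 121, 96.7 and 138 CPM. Aqp11, an aquaporin gene, was at 5.07, 9.1 and 2.79 against 0, 0 and 0.0928 CPM. Tox2 and Ccr9 were among the members that went the other way. Tox2 was at 0 against 186, 206 and 269 CPM. Markers of double-positive thymocytes moved with this list, with a summed level of 234 to 250 CPM in thymus and 75.6 to 91.7 CPM in active WT libraries, and their part in it was not tested.

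Of the factors of resting and stem-like T cells that passed the test, all but Runx1 were higher in the nascent cells. Of 12 genes, 6 were higher in thymus, 1 lower and 5 passed no test, with a median log2 difference of 0.49. Lef1, a factor downstream of Wnt signalling, was at 695, 748 and 681 against 204, 175 and 168 CPM (log2 difference 1.87 ± 0.12, adjusted p = 6.09e-05). Bach2, a repressor of effector programs, was at 116, 119 and 114 against 33.7, 22.2 and 37.6 CPM. Klf2, which drives S1pr1, was at 1426, 1542 and 1500.4 against 617, 728 and 622 CPM. Tcf7, encoding TCF-1, was higher by 0.49 on the log2 scale. Runx1 was the member that was lower, at 72.1, 65.9 and 71.2 against 143, 146 and 143 CPM. Foxp1 and Ets1 did not pass the test, at log2 differences of 0.35 and 0.19.

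Genes of thymic egress and late maturation were split, with 5 of 15 higher, 6 lower and a median log2 difference of 0.06. Bcl2 joined S1pr1 and Klf2 on the higher side. On the lower side, Il7r, encoding the interleukin-7 receptor, was at 13.2, 14.0 and 16.8 CPM in thymus and 242, 279 and 268 CPM in active cells, a log2 difference of -4.25 ± 0.17 (adjusted p = 1.02e-05). Ly6a, encoding the late maturation marker Sca-1, was at 30.3, 34.6 and 27.5 against 1374, 1017 and 932 CPM. H2-Q7 and Klf6 were lower too, by log2 differences of -1.12 and -1.33. The higher count of this list was 3 without thymus WT replicate 1 or without active WT replicate 2.

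Immediate-early targets of the T cell receptor did not move as a block. Of 22 genes, 6 were higher in thymus, 5 lower and 11 passed no test, with a median log2 difference of 0.28. The nuclear receptor Nr4a1, a reporter of recent receptor signals, was at 719, 914 and 849 CPM in thymus and 185, 170.2 and 215 CPM in active cells (log2 difference 2.03 ± 0.14, adjusted p = 7.78e-05). Rel, encoding the NF-κB subunit c-Rel that acts at the Foxp3 locus, was at 80.4, 92.1 and 91.8 against 25.9, 15.7 and 26.8 CPM. The AP-1 genes were split, with Fos, Fosb, Jun and Junb lower, Jund higher by 0.45 on the log2 scale (adjusted p = 0.0267) and Fosl2 not called. Fos was at 28.3, 27.8 and 27.4 against 358, 343 and 465 CPM, Jun at 35.1, 28.3 and 50.3 against 346, 435 and 501 CPM and Junb at 435, 403 and 437 against 1332, 1559 and 1404 CPM. Egr1 and Egr2 did not pass the test, at log2 differences of 0.27 and -0.01. The higher count was 3 without any 1 of the 3 thymus WT libraries.

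In the BCL2 family, which balances survival against mitochondrial cell death, 15 of 18 genes were tested, 3 were higher in thymus, 1 lower and 11 passed no test, with a median log2 difference of -0.62, and in the TIR1 libraries 3 were higher and 5 lower. Those higher in WT held both sides of the balance. Bcl2, an inhibitor of cell death, was at 418, 415 and 444 CPM in thymus and 108, 124 and 103 CPM in active cells, a log2 difference of 1.84 ± 0.12 (adjusted p = 6.09e-05), and Mcl1, another inhibitor, at 1069.8, 1133 and 1115 against 541, 660.0 and 669 CPM. Bcl2l11, encoding the death-promoting BIM, was at 53.6, 51.1 and 51.0 against 29.1, 24.4 and 32.5 CPM (adjusted p = 0.033). Bik was the gene that was lower, at 0.142, 0.368 and 0.723 against 11.9, 15.1 and 13.3 CPM. The near-identical Bcl2a1 copies share reads and are uncertain.

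More cytokine and cytokine receptor genes were lower than higher in thymus. Of 32 genes, 30 were tested, 16 were lower in thymus, 4 higher and 10 passed no test, with a median log2 difference of -1.20. The lower count was 11 to 14 with 1 library left out and 12 with the replicate block, and in the TIR1 libraries 10 were higher and 15 lower. Among cytokines, Il17a was at 0 in the 6 thymus libraries and at 23.8, 29.4 and 52.3 CPM in active WT and 189, 152 and 189 CPM in active TIR1 cells, at least 340.2-fold lower in thymus WT (adjusted p = 0.000282). With both thymus groups at 0, the interaction fit could not test whether the genotypes differed. Ifng was at 0 against 9.33, 4.64 and 2.91 CPM in WT. Among receptors, Il1r1 was at 0 against 22.8, 61.6 and 111 CPM, the decoy receptor gene Il1r2 at 0, 0 and 0.482 against 186, 224 and 231 CPM, and Il1rl1, encoding the IL-33 receptor ST2, at 0 against 3.21, 5.74 and 6.07 CPM. The 4 that were higher in thymus were Ifngr2, Lta, Tgfbr1 and Ifnar1. Ifngr2, encoding the signalling chain of the interferon-γ receptor, was at 280.2, 263 and 258 CPM in thymus and 62.5, 49.6 and 49.5 CPM in active cells, a log2 difference of 2.22 ± 0.15 (adjusted p = 7.04e-05). Lta, encoding lymphotoxin-α, was at 353, 373 and 392.1 against 140.0, 125 and 75.0 CPM.

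Genes for migration and the cytoskeleton that antigen-experienced T cells switch on were lower in thymus for 13 of 15, with none higher and a median log2 difference of -2.95. S100a4, a calcium-binding protein gene of motile cells, was at 0 in the 6 thymus libraries and at 48.0, 41.3 and 35.0 CPM in active WT cells, at least 401-fold (adjusted p = 7.99e-05), although another gene covers 51.7% of its exonic bases. S100a6 was at 0.461, 0 and 1.34 against 344, 254 and 187 CPM and Plac8 at 0.284, 0 and 0.448 against 407, 174 and 127 CPM. Lgals3, encoding galectin-3, was at 0.638, 0 and 1.14 against 90.1, 102 and 82.5 CPM, and Ahnak, encoding a giant scaffold protein, at 1.49, 4.82 and 6.54 against 139, 169 and 218 CPM. Anxa1 was at 0 against 10.5, 15.0 and 4.64 CPM. Vim and Emp3 did not pass the test, at log2 differences of -0.12 and -0.20. The same 13 genes were called lower in the TIR1 libraries.

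Many proliferation genes were lower in nascent cells. Of 30 cell cycle genes, 16 were lower in thymus, 1 higher and 13 passed no test, with a median log2 difference of -1.52. Those that fell held genes of mitosis, such as Mki67, Aurkb, Ccnb1 and Ccnb2, and of DNA synthesis, such as Rrm2, Tyms, Mcm3 and Mcm6. Mki67, the marker of cycling cells, was at 0, 0 and 3.55 CPM in thymus and 29.3, 55.02 and 69.8 CPM in active cells (adjusted p = 0.0401). Aurkb, the Aurora B kinase gene, was at 0, 0.1 and 3.96 against 54.8, 59.4 and 67.5 CPM. The mitotic cyclin genes Ccnb1 and Ccnb2 were at 0.922, 1.2 and 1.07 against 12.3, 32.5 and 30.9 CPM and 3.87, 0 and 4.31 against 70.7, 90.6 and 95.5 CPM. For Mki67 and Aurkb, thymus WT replicate 3 was the highest of its group. Of the 3 inhibitors of the cycle in the list, Cdkn1b was not called (log2 difference 0.14) and the other two fell, with Cdkn1a at 0, 0.97 and 0 against 28.0, 14.3 and 15.9 CPM and Cdkn2c at 2.31, 1.67 and 6.1 against 41.8, 93.2 and 84.0 CPM. Ccnd2, the cyclin of early G1, was the gene that was higher in thymus, at 1703, 1741 and 1866 against 966, 744 and 828 CPM (log2 difference 0.97 ± 0.12, adjusted p = 0.00125). Of the replication helicase genes, Mcm2, Mcm4 and Mcm7 did not pass the test. The lower count was 10 without active WT replicate 2, 10 without active WT replicate 3 and 10 with no count filter, and 17 genes were lower in the TIR1 libraries. E2F sites (TTTCCCGC or TTTGGCGC, either strand) lay in 6 of the 30 promoters and in 2.01% of all promoters, but in 2 of the 16 genes that fell.

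The interferon-stimulated genes that passed the edgeR test in WT were all higher in thymus. Of 31 tested, 13 were higher in thymus WT, 0 lower and 18 passed no test, with a median log2 difference of 0.91. Ifit1, whose product binds foreign RNA, was at 470.5, 481 and 464 CPM in thymus and 94.3, 57.7 and 119 CPM in active cells, a log2 difference of 2.29 ± 0.25 (adjusted p = 0.000631). Irf7, encoding the factor that amplifies the interferon response, was at 589, 477 and 523 against 181, 173 and 217 CPM, and Usp18, encoding a protease that restrains interferon receptor signalling, at 242, 235 and 216 against 98.2, 62.5 and 75.1 CPM. Rtp4 was at 386, 419.6 and 373 against 188, 101 and 141 CPM and Oasl1 at 31.7, 26.3 and 49.9 against 7.71, 2.86 and 1.15 CPM. Ifit3 was at 121, 125 and 112 against 42.9, 33.7 and 52.0 CPM, was called in WT only, and shares near-identical sequence with Ifit3b. Isg15 did not pass the test, at 108, 99.4 and 96.9 against 102, 47.9 and 64.3 CPM. In the TIR1 libraries 14 were higher and 2 lower, and 11 genes were called higher in both genotypes. The WT count was 20 without active WT replicate 1, whose Isg15 value lay within the thymus range. It was 9 without active WT replicate 2, and 10 with the replicate block or without any 1 thymus WT library. DESeq2 called 18 higher and 1 lower in WT.

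Promoter sequences are shown because the list members that edgeR called in WT moved in 1 direction. Many members share a known control element, the interferon-stimulated response element. It was searched as GAAA, a spacer of 2 bases and GAAA again, on either strand, from 250 bases before to 50 bases after the start site of the canonical transcript (reference mm39). It was found in 17 of 31 promoters of the list and in 3.84% of promoters of all protein-coding genes. Within the list it was in 6 of the 13 promoters of genes higher in thymus and in 11 of the other 18. Windows around 1 match each are given 5′ to 3′ on the strand of the gene, with the match in capitals, for Ifit1, Usp18 and Zbp1, which were higher in thymus, and for Isg15, which passed no test. They lie at chr19:34618184-34618233, chr6:121222762-121222811, chr2:173060780-173060829 and chr4:156285318-156285367, in that order.
Ifit1: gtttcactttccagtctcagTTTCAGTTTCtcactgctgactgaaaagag
Usp18: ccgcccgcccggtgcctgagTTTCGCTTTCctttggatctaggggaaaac
Zbp1: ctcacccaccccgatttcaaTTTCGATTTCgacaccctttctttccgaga
Isg15: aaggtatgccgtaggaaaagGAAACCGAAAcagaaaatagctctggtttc

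Glycolysis genes were split. Of 18 genes, 7 were lower in thymus, 2 higher and 9 passed no test, with a median log2 difference of -0.45. Tpi1 was at 72.0, 91.9 and 78.0 CPM in thymus and 258, 217 and 211 CPM in active cells (log2 difference -1.60 ± 0.16, adjusted p = 0.000442), and Aldoa at 499.6, 607 and 495 against 989, 956 and 832 CPM. Ldhb, the lactate dehydrogenase chain of oxidative tissue, was higher in thymus, at 160.5, 174 and 138 against 59.1, 38.4 and 25.3 CPM, as was the lactate exporter gene Slc16a3, at 36.0, 34.2 and 30.9 against 8.97, 16.5 and 10.1 CPM. The lower count was 3 when libraries were scaled by their totals, and 3 without any 1 of the 3 thymus libraries, active WT replicate 2 or active WT replicate 3. Gapdh and Pgk1, which have many processed copies, are uncertain.

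**Figure D4:**
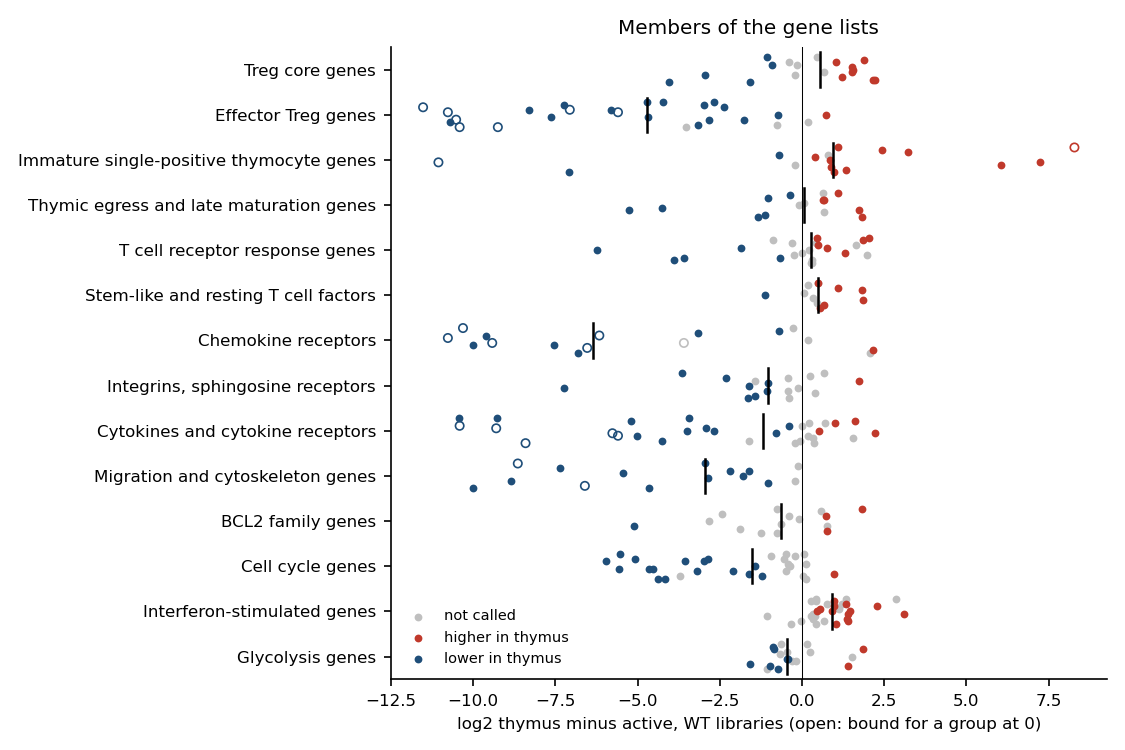
Log2 difference (thymus minus active, WT) of every tested member of the 14 lists, one point per gene, red where called higher, blue where called lower and grey where not called. Open circles are genes with a group at 0, drawn at the bound set by the floor of 3 counts per library, and black bars are list medians on the same basis; the effector, chemokine receptor and migration lists lie mostly left of 0 and the interferon-stimulated list mostly right.

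Markers of other cells were not equal between the tissues. Of the 10 genes fixed for double-positive thymocytes, 9 were present in the counts and make up the sum above. Rag1, Rag2 and Ptcra did not reach the count filter, 6 were tested and 4 were higher in thymus. Cd8a was at 6.92, 4.45 and 7.16 CPM in thymus and 0 in the 6 active libraries, Cd8b1 at 55.9, 50.1 and 46.9 against 11.8, 15.3 and 11.1 CPM, and Cd1d1 at 160.1, 192 and 163 against 51.1, 62.6 and 56.4 CPM. The 8 CD8 T and NK cell genes, which include the same Cd8a and Cd8b1, summed to 65.1 to 74.6 against 21.5 to 24.4 CPM in thymus and active WT libraries. B cell markers were lower in thymus (11.02 to 21.1 against 48.5 to 83.9 CPM summed), with Ms4a1 and Pax5 under the filter and Cd79b and Blk called. Myeloid markers summed to 4.92 to 10.8 against 9.1 to 21.3 CPM, with Lyz2 and C1qb called lower in WT, calls that were lost without active WT replicate 1 or any 1 thymus WT library. Thymic epithelial genes summed to 31.0 to 42.7 against 8.94 to 22.0 CPM, with Foxn1, Aire, Krt5 and Krt8 under the filter. Most of this came from Epcam, at 26.1, 18.1 and 29.1 against 5.19, 11.9 and 5.11 CPM. The 1 gene called became 0 without active WT replicate 1, active WT replicate 3 or any 1 thymus WT library. It also became 0 with the replicate block. Erythroid and stromal markers summed to 145 to 171 against 61.9 to 106 CPM, mostly from Pecam1, at 144, 171 and 158 against 56.8, 106 and 93.0 CPM, and the 0 genes called became 1 without active WT replicate 1. Cells of both tissues were sorted on TCRβ and CD4, and then sorted a second time. The part of any remaining B, myeloid, epithelial, erythroid or stromal cells in the differences above was not tested.

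Resting and active Treg cells of Foxp3-GFP mice, sorted in another experiment and counted with other settings, were set beside these genes to describe which of them also differ between peripheral states. Of the 1124 genes lower in thymus in both genotypes, 77.5% had a higher mean in active than in resting GFP cells, and in 58.7% both active libraries lay above both resting ones. Of the 689 genes higher in thymus, 69.8% had a lower mean in active cells, and in 49.8% both active libraries lay below both resting ones. Over all 13994 genes, 55.7% had a higher mean in active cells, and the 2 libraries lay fully above in 31.0% and fully below in 23.4%. The median log2 difference, active minus resting, was 0.36 for the genes lower in thymus, -0.20 for those higher and 0.05 for all genes, on a log2(CPM + 1) scale.

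Named genes fell into both kinds. Ccr7 was at 638 and 625 CPM in resting and 237 and 246 CPM in active GFP cells, and S1pr1 at 553 and 587 against 181 and 178 CPM, in the order of thymus against active. Satb1, Lef1 and Bach2 were also higher in resting cells, at 398 and 443, 327 and 335 and 85.2 and 81.9 CPM against 136 and 192, 162 and 170.5 and 29.4 and 32.4 CPM. Il10 was at 7.84 and 6.51 in resting and 40.4 and 82.7 CPM in active cells. In contrast, Tnfrsf9, higher in thymus than in active degron cells, was at 331 and 223 CPM in resting and 796 and 599.8 CPM in active GFP cells, and Ikzf2 at 396 and 407 against 653 and 608 CPM. The mitotic genes did not follow activation either, with Ccnb2 at 31.1 and 35.4 in resting and 13.7 and 20.9 CPM in active cells. Of the AP-1 genes lower in thymus, Fos was at 1607 and 1545 CPM in resting and 1426 and 1239 CPM in active GFP cells. Jun was at 1992 and 2076 against 2137 and 1721 CPM. Junb was at 2921.5 and 4151 against 2671 and 4717 CPM, and Fosb at 28.0 and 41.8 against 26.0 and 39.9 CPM. With 2 libraries per group, other mice and other counting settings, no test was made.

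**Figure D5:**
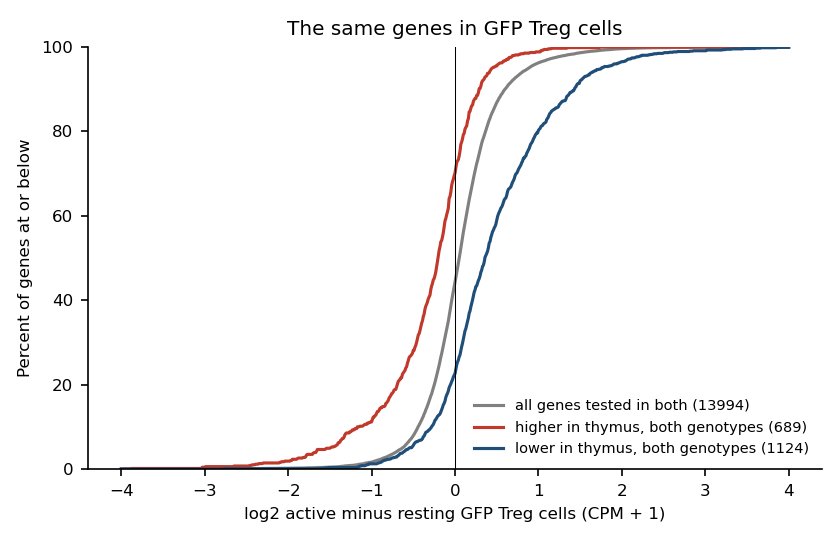
Cumulative percent of genes (y axis) by their log2 difference between active and resting GFP Treg cells (x axis, means of 2 libraries per group on a log2(CPM + 1) scale). The curve of the 1124 genes lower in thymus lies to the right of that of all 13994 genes and the curve of the 689 genes higher in thymus to the left, with medians of 0.36, 0.05 and -0.20.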

How the data were processed

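Bulk RNA-seq libraries (SMART-Seq v4 low-input kit, no molecular identifiers) were analysed from the deposited counts. The authors aligned reads to mm39 (STAR in the study's methods, Bowtie2 in the submitters' processing notes) and, per the file headers, counted read pairs per gene with featureCounts 2.0.3 on GENCODE mouse annotation 30 without strand. Reads from overlapping and antisense genes can therefore not be told apart. The degron libraries were counted from primary, non-chimeric pairs of mapping quality of at least 30, and the GFP libraries without these settings. The members and gene lists were chosen with earlier results of these data known.

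Within each genotype, genes averaging 10 or more counts per library were tested in R 4.3.3 with edgeR 4.0.16 (TMM factors, robust quasi-likelihood F test, thymus minus active). Benjamini-Hochberg adjusted p under 0.05 was the threshold. Genotypes were fitted separately, and an interaction was fitted on all 12 libraries. Errors of log2 differences are standard errors. Depth sets the floor of 3 counts, and counting error only is covered. On counts simulated for the WT comparison (14690 genes), 14% of 100 genes changed 2-fold and 57% of 100 changed 4-fold were recovered, with 4 false among 75 calls. No other gene was changed there, whereas 15.8% of genes were called in the data. With so few changed genes the adjusted threshold is stricter, so these shares do not give the recovery in the data.

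Genes were named by rule: Foxp3, the 3 sorting genes, the 10 largest changes per direction called in both genotypes (mean count of at least 100 in WT, no overlap between tissues in either genotype, no predicted genes, pseudogenes or receptor segments), and from each list up to 6 called members with the largest change and up to 3 not called. This gave 106 genes, of which some are not reported here. Other genes were named after their values were seen, among them Tigit, Lag3, Maf, Prdm1, Icos, Batf, Gata3, Cxcr6, Tcf7, Zbp1, the further Treg core genes, Rrm2, Tyms, Mcm3, Mcm6, Jund and all marker genes. DESeq2 1.42.0, other scalings, filters, a replicate block, left-out libraries and the recorded genotype were tried as alternatives. Promoter sequences came from the mm39 reference.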

Additional observations from a re-analysis of the deposited data

How the results depend on the processing

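The 2322 WT calls became 3578 with DESeq2 (1469 higher, 2109 lower) and 1585 to 2822 when 1 library was left out, lowest without active WT replicate 2 and highest without active WT replicate 1. Scaling by library totals moved the share of higher calls from 37.7% to 44.9% and the median of all genes from -0.03 to 0.06. The 3469 TIR1 calls became 2081 when a change of at least 2-fold was also asked for, and 2607 to 2931 with 1 library left out. Taking genotype from the recorded sample gave 3469 calls for the comparison named WT and 2322 for that named TIR1. The interaction count of 0 became 71 with DESeq2 and 0 to 5 with 1 library left out. The GFP share of 77.5% was 71.4% to 77.9%, lowest without active GFP replicate 2. The cause was not tested.

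Same-numbered thymus and active libraries did not deviate together (r of 0.03, 0.03 and 0.01 in WT and 0.02, -0.01 and 0.02 in TIR1), so the replicate numbers were not taken to pair samples. With the replicate block 1736 WT and 2931 TIR1 genes were called, and 0 in the interaction. In WT, every thymus library correlated best with its own number, but not in TIR1. The library names carry the same running number in both tissues, so a thymus and an active library may come from the same mouse. The labels do not state this, and such small correlations cannot decide it.

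Of 1484 values of the 106 named genes under alternatives, 1402 kept direction and call, 78 lost the call and 3 gained it (all Foxp3). C1qb reversed to 0.23 (adjusted p = 0.934) with genotype from the recorded sample. 86 genes were called in WT and under every alternative. Beside the list counts in the report, the 1 BCL2 gene lower became 2 with the replicate block, 3 with DESeq2 and 4 in one fit of 12 libraries. The 0 identity genes called became 3 (2 higher, 1 lower) without active WT replicate 1 and 2 lower without active WT replicate 3. The 2 glycolysis genes higher became 1 without active WT replicate 3 or thymus WT replicate 1 or 2, and the 2 B cell genes lower became 1 without thymus WT replicate 1 or 3. The 1 adhesion gene higher became 2 without active WT replicate 1.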

Other observations

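Among the 63 genes without a read pair in thymus WT libraries and at least 10 CPM in every active WT library were several that belong to no list above and were picked after their values were seen. Il23r, encoding the receptor for interleukin-23, was at 36.3, 27.2 and 43.3 CPM in active WT cells, and Vdr, encoding the vitamin D receptor, at 25.9, 27.1 and 38.7 CPM, with both at 0 in the 6 thymus libraries. Gpr15, a gut-homing receptor gene, was at 48.3, 102 and 109 CPM, with replicate 1 lowest, and Ltb4r1, encoding a leukotriene B4 receptor, at 106, 141 and 164 CPM. Tph1, the rate-limiting enzyme of peripheral serotonin synthesis, was at 45.7, 92.6 and 96.3 CPM. Csf1, encoding the macrophage growth factor, was at 22.1, 36.6 and 55.8 CPM, and Cybb, encoding a subunit of the phagocyte NADPH oxidase, at 31.9, 43.6 and 19.9 CPM.

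The same genes were not equally present in active Treg cells of Foxp3-GFP mice. Of the 63, 52 had a mean of at least 1 CPM in active and 39 in resting GFP cells, and 61 had a higher mean in active than in resting cells. Cybb was at 136 and 112 CPM and Csf1 at 70.7 and 62.9 CPM in the 2 active GFP libraries. Il23r was at 2.62 and 2.93 CPM there, Tph1 at 0.437 and 3.81 CPM and Ccl20, the gene with the largest loss in thymus, at 4.84 and 1.62 CPM. Other mice, no drug and other counting settings separate the GFP libraries from the degron libraries, and these cannot be told apart.

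In the thymus, Arhgap20, a RhoGAP gene, was at 373, 337 and 348 CPM in WT and 359, 355 and 321 CPM in TIR1 libraries, against 6.81, 2.65 and 4.36 CPM in active WT cells, and was at 16.2 and 11.6 CPM in resting GFP cells.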
